A study of Mus musculus with 18 samples.

Results

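The chaperone genes described here were the genes of the RNA-seq table whose symbols start with Hspa, Hspb, Hspd, Hspe or Hsph and a digit, with Hsp90, or with Dnaja, Dnajb or Dnajc and a digit. They numbered 72 of the 23420 genes in the table. By family they were 8 small heat shock genes (Hspb), 45 genes of the 40 kDa family (Dnaj), 2 of the 60 kDa family (Hspd1 and its partner Hspe1), 11 of the 70 kDa family (Hspa without Hspa4 and Hspa4l), 3 of the 90 kDa family and 3 of the 110 kDa family (Hsph1, Hspa4 and Hspa4l). Hspb11 is counted because its symbol meets the rule, although its product is an intraflagellar transport protein rather than a chaperone. RNA was sequenced from whole powdered hindlimb muscle of unmutated female C57BL/6J mice aged 2, 20 and 28 months, with 3 mice per age and 1 library per mouse. In such bulk tissue, fewer cells of a type and less RNA per cell cannot be told apart. Methylated DNA captured with a methyl-CpG-binding domain (MBD-seq) was available from the muscle and the spleen T cells of mice of the same ages, as 1 pool of 3 mice per age and tissue. The labels list a second capture of muscle DNA per age, but the table holds 1 muscle column per age.

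Chaperones help proteins to fold, keep unfolded proteins from aggregating and hand damaged ones over for degradation. Small heat shock proteins hold unfolding clients without using ATP, and several of them are abundant in skeletal muscle, where they bind desmin, actin and titin filaments. The 70 kDa chaperones work in ATP-driven cycles that J-domain (40 kDa) proteins start and the 110 kDa proteins reset by nucleotide exchange, while the 90 kDa chaperones mature kinases, receptors and muscle myosin. The 60 kDa chaperonin and its lid fold proteins inside mitochondria. Heat shock factor induces many of these genes by binding repeats of the GAA unit in their promoters.

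The values are reads per gene divided by a size factor for the library, called normalized counts below. Gene reads per library ranged from 20203833 to 71115244, and the chaperone genes took 0.539 to 0.927% of them. The 3 libraries numbered 3 had normalized sums of 38131628 to 39602607, against 47840578 to 52950481 in the other 6. Markers of muscle in general and of fast fibres were abundant in every library, with 2 of 8 fast-fibre markers lower at 20 months and 4 of 8 at 28 months (Pvalb by -0.85 and -1.03 on the log2 scale). T-cell markers summed to at most 28.3 normalized counts. Markers of some other cell types differed with age: the fibroblast markers summed to 38898 to 87593 at 2 months and to 7711 to 11488 later, and the granulocyte markers summed to 4391 in 2-month library 1 and to at most 69.2 in the other 8 libraries. The fibroblast sum was carried by 3 collagen genes, while the fourth marker, Pdgfra, did not pass (adjusted p = 0.233 and 0.499). Of 4 adipocyte markers, 3 were lower at 20 months and 1 at 28 months. The part of these differences in the results below was not tested.

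Of the 72 chaperone genes, 63 had a mean normalized count of at least 10 and were tested, with limma on log2(normalized count + 1) and Benjamini-Hochberg adjustment over all 13178 genes that passed this filter. A gene is said to have risen or fallen where the adjusted p was under 0.05. From 2 to 20 months, 13 chaperone genes rose and 4 fell, 27.0% of the 63, where 16.6% of all tested genes passed. By direction, 20.6% of the chaperone genes rose against a background of 9.42%, and 6.35% fell against 7.13%. From 2 to 28 months, 11 rose and 2 fell, 20.6% of the 63 against a background of 13.8%; the backgrounds by direction were 7.53% for genes that rose and 6.24% for genes that fell. Between 20 and 28 months none of the 63 passed, against 0.379% of all genes; 8 of the 63 had an unadjusted p under 0.05 (1396 of all 13178 genes), edgeR called none, and DESeq2 called 2, where it called 1.73% of all genes. Against the mean of both older ages, 16 passed (14 higher at the older ages), 25.4% against a background of 20.1%. These comparisons share the 2-month libraries, so they are not independent of each other. The counts were sensitive to single libraries: 20-month calls numbered 10 without young library 1, 8 without 20-month library 1 and 7 without 20-month library 2, where 10.6, 8.20 and 9.59% of all genes passed. The 28-month calls numbered 8 without young library 1, 28-month library 1 or 28-month library 3, where 8.40, 7.31 and 8.17% of all genes passed. For both older ages together, 9 passed without young library 1, against 12.5% of all genes. With the libraries rescaled to the same sum, 1 (Hspb7), 3 (Hspb7, Hspb8 and Hspa1a) and 5 passed in the 3 comparisons with young muscle, where 4.45, 4.20 and 6.04% of all genes did. The log2 fold changes at 20 months moved little under this rescaling, from 0.59 to 0.60 for Dnaja4, from 0.51 to 0.53 for Dnajb6 and from -0.39 to -0.37 for Dnajb5.

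The changes were mostly small. The median log2 fold change of the 63 genes was 0.12 at 20 months and 0.07 at 28 months against 2 months, beside medians of -0.02 and -0.01 over all tested genes. Only Hspb7 changed more than 2-fold with an unadjusted p under 0.05 at 20 months (1 of 63, against 5.17% of all genes). At 28 months Hspb7 and Hspa1a did so (2 of 63, against 5.14%), and between 20 and 28 months none did (against 1.31%). All 3 libraries of 20 months lay above all 3 of 2 months for 20 chaperone genes (31.7%, against 18.4% of all genes) and below them for 7 (11.1%, against 17.6%). At 28 months the corresponding numbers were 17 (27.0%, against 15.3%) and 8 (12.7%, against 15.0%). For a single gene, an exact two-sided permutation test of 3 libraries against 3 cannot give a p below 0.1, and a gene with separate groups reaches that value.

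**Figure D1:**
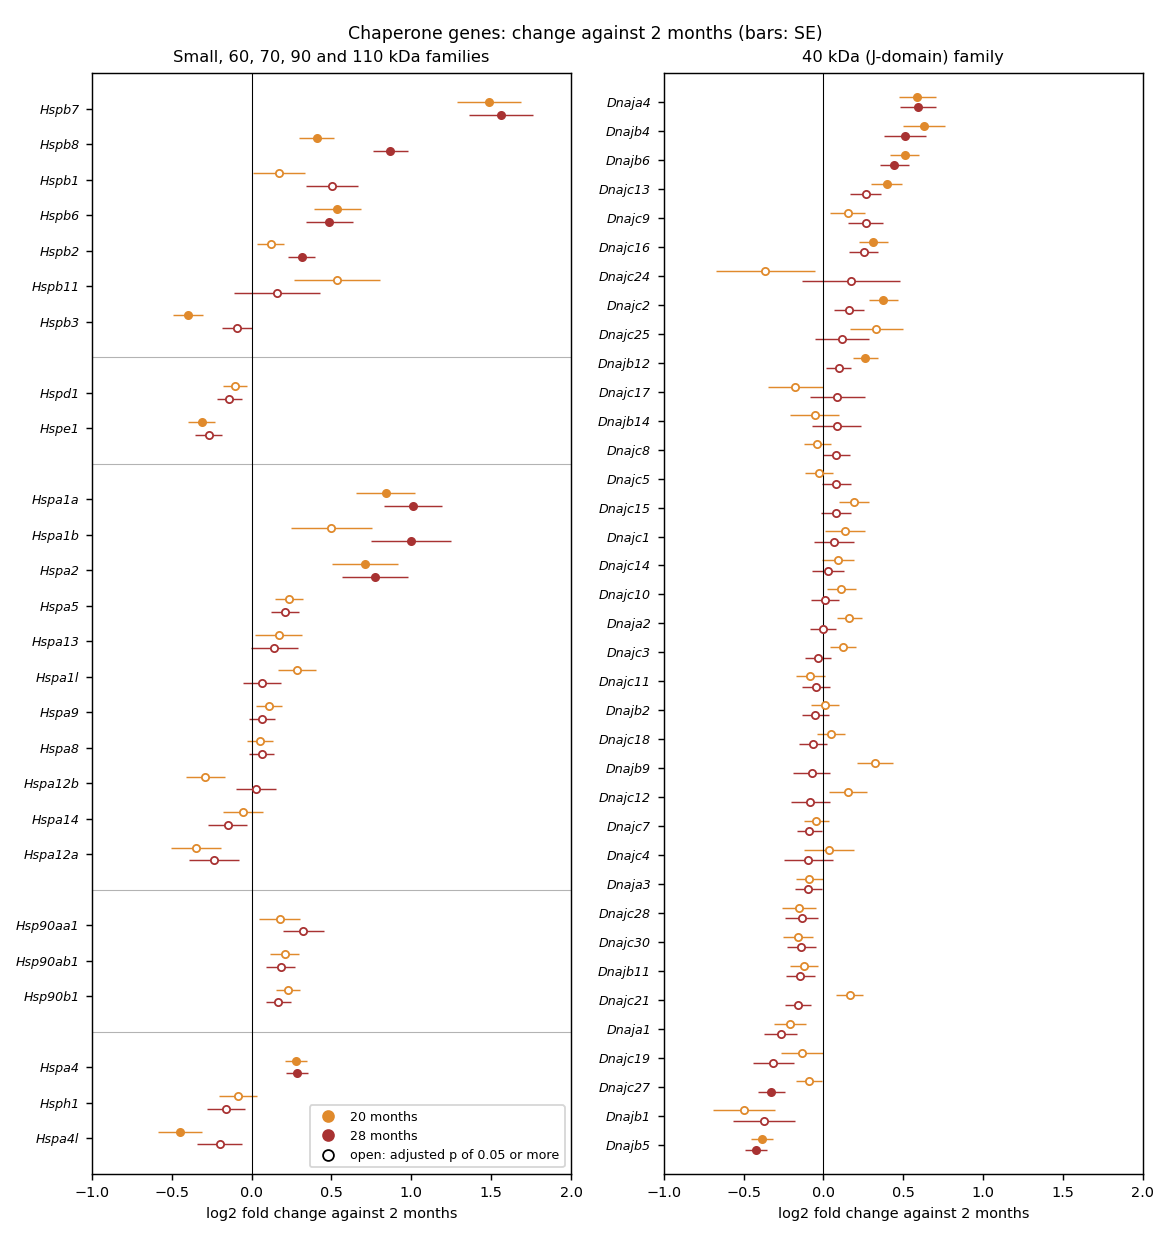
Log2 fold change of the 63 tested chaperone genes at 20 months (orange) and 28 months (red) against 2 months, on the log2(normalized count + 1) scale, grouped by family, with bars for the SE and filled points for a limma adjusted p under 0.05. Hspb7 lies farthest to the right at 1.49 and 1.56, and most genes of the 40 kDa family lie within 0.5 of 0.

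Summed over all its members, the small heat shock family held 60541, 86906 and 60413 normalized counts in the 3 libraries of 2 months. It held 117645, 108637 and 107546 at 20 months and 118654, 117734 and 119671 at 28 months, so the 6 libraries of older mice all lay above the 3 of young mice. Its mean was 1.61 times the 2-month mean at 20 months and 1.71 times at 28 months. The other families moved less. The 90 kDa sum was 62230 ± 1970 (SD, n = 3) at 2 months, 71970 ± 3940 at 20 months and 70820 ± 2660 at 28 months, without overlap between young and older libraries. The 40 kDa sum went from 75170 ± 545 to 80240 ± 911 and back to 75200 ± 1230. The 70 kDa sum was 67450 ± 2070, 72120 ± 1080 and 71530 ± 2200 at the 3 ages, and its ranges at 2 and 28 months met, with 69533 the highest young and 69439 the lowest 28-month value. The 60 kDa sum was 9807 ± 533 at 2 months, above 8839 ± 233 at 20 months and 8721 ± 280 at 28 months. The 110 kDa sum was 10450 ± 768, 11290 ± 526 and 11180 ± 607 at the 3 ages, with overlapping ranges. Most of the 90 kDa sum was Hsp90ab1, with a mean of 60056 over the 9 libraries, against 5855 for Hsp90b1 and 2427 for Hsp90aa1. Hsp90ab1 itself did not pass at either older age (limma adjusted p = 0.135 and 0.208). No test was made on these sums. Hspb6, Hspb7 and Hspb8 together gained 47270 normalized counts from 2 to 28 months, while all 72 genes together gained 61740.

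**Figure D2:**
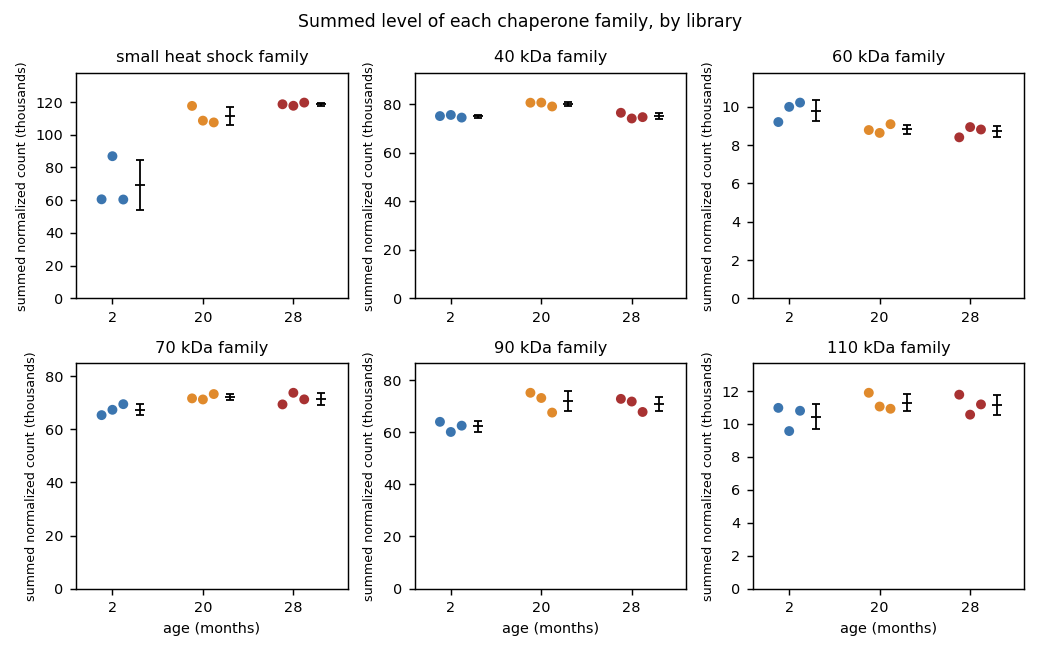
Summed normalized count (axis in kilocounts) of each chaperone family against age in months; each point is 1 library, and the black mark and bar give the mean and SD of 3. The small family goes from counts of 60413 to 86906 at 2 months to 107546 to 119671 at the older ages, and the 40 kDa sum is highest at 20 months.

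Per kb of transcript, the most abundant chaperone genes over the 9 libraries were Hspb6 (29110 normalized counts per kb), Hsp90ab1 (23960), Hspa8 (17050), Hspb7 (10310), Hspb8 (8971), Hspa9 (7088) and Hspb1 (5475). This order is over all ages and differed at 2 months. There Hspb6 stood at 23050 ± 6300 per kb (SD, n = 3), within that spread of Hsp90ab1 at 21830 ± 680. Hspa9 stood at 6813 ± 520, Hspb8 at 6490 ± 781 and Hspb7 at 4795 ± 2040, gaps within the spread of Hspb7. At 28 months Hspb7 stood at 13400 ± 512, Hspb8 at 11810 ± 858 and Hspa9 at 7118 ± 409. The other 9 members fell under the filter: Hspb9 and 8 of the 40 kDa family (Dnajb3, Dnajb7, Dnajb8, Dnajb13, Dnajc5b, Dnajc5g, Dnajc6 and Dnajc22). Hspb9, Dnajc5b and Dnajc22 had no read in any library, and no other of these genes passed 13.4 normalized counts in any library.

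Of the 7 tested small heat shock genes, 4 (Hspb2, Hspb6, Hspb7 and Hspb8) had risen by 28 months, beside a background of 7.53% for genes that rose. By 20 months 3 of them (Hspb6, Hspb7 and Hspb8) had already risen and Hspb3 had fallen, beside backgrounds of 9.42% for rises and 7.13% for falls. Hspb7, a small heat shock protein of heart and skeletal muscle that binds filament proteins, changed most of all chaperone genes. Its normalized counts were 10438, 19787 and 9589 at 2 months, 38182, 32753 and 34735 at 20 months and 37675, 35463 and 38102 at 28 months. Every older library lay above every young one, and young library 2 stood above the other two. The log2 fold change was 1.49 (SE 0.20, limma adjusted p = 0.000461) at 20 months and 1.56 (SE 0.20, limma adjusted p = 0.000332) at 28 months, folds of 2.80 and 2.95. Both calls held without any single library, with log2 fold changes of 1.29 to 1.81 and 1.37 to 1.89. Hspb7 lies on the plus strand at chr4:141420779-141425310 (GRCm38). The 250 bases before its start, the gene with the largest change, are given here with CpG sites in capitals, of which there are 5 (RefSeq, GRCm38.p6, chr4:141420529-141420778, plus strand).
Hspb7: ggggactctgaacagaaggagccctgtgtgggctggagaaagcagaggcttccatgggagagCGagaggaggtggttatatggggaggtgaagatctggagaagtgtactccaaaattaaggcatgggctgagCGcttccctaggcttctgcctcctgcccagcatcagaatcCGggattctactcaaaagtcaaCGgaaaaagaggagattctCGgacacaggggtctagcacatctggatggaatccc

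Hspb6, whose product associates with actin and was first described in muscle extracts, had 31329, 49148 and 31609 normalized counts at 2 months, 56522, 50132 and 52452 at 20 months and 49080, 52472 and 51923 at 28 months. Young library 2 thus lay at the level of the older libraries, and the 2-month and 28-month groups overlapped. The log2 fold change was 0.54 (SE 0.15, limma adjusted p = 0.0256) at 20 months and 0.49 (SE 0.15, limma adjusted p = 0.0445) at 28 months. Without young library 2, the 2 values were 0.75 and 0.70. The 20-month call was lost without young library 1 or 3 or any 20-month library (adjusted p 0.0542 to 0.105), and the 28-month call without any library other than young library 2 (0.0559 to 0.171) or with edgeR on the recovered reads (0.0586). Both calls were also lost with quantile normalization, rescaling to the same sum or only the libraries of the compared ages. The 28-month call was lost with no filter on low values as well.

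Hspb8, which works with Bag3 in the autophagic removal of damaged muscle proteins, was higher at each later age. Its normalized counts were 11606, 10465 and 13285 at 2 months, 14986, 17809 and 14126 at 20 months and 22836, 19763 and 21754 at 28 months. The 3 age groups did not overlap. It rose by 0.41 (SE 0.11, limma adjusted p = 0.0231) at 20 months and by 0.87 (SE 0.11, limma adjusted p = 0.000261) at 28 months, on the log2 scale. The step from 20 to 28 months was 0.46 (SE 0.11) and did not pass with limma (adjusted p = 0.111), while DESeq2 on the recovered reads called it (adjusted p = 0.00932). The 28-month call held without any single library. The 20-month call was lost without young library 1 or 2 or 20-month library 1 or 2 (adjusted p 0.0605 to 0.104). It was also lost with quantile normalization or rescaling to the same sum.

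Hspb2 and Hspb3, which form a complex with each other in muscle, did not move alike. Hspb2 had 1877, 1866 and 1764 normalized counts at 2 months and 2347, 2309 and 2184 at 28 months, a log2 fold change of 0.31 (SE 0.08, limma adjusted p = 0.0265). That call was lost without young library 1 or 3 or 28-month library 1 or 2 (adjusted p 0.0507 to 0.0955). The Hspb2 span lies wholly within that of Cryab on the opposite strand (1283 bp shared), and whether reads were counted by strand is not given in the sources used here. Hspb3 had 778, 763 and 814 at 2 months, fell to 641, 580 and 567 at 20 months and stood at 712, 764 and 732 at 28 months. The fall at 20 months was -0.40 (SE 0.09, limma adjusted p = 0.0132), lost without 20-month library 2 (adjusted p = 0.0522), and at 28 months the difference from 2 months was -0.09 (SE 0.09, adjusted p = 0.562).

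Hspb1, the widely expressed small heat shock protein, had 4476, 4825 and 3289 normalized counts at 2 months, 5175, 5155 and 3800 at 20 months and 5943, 6914 and 4920 at 28 months. In each age the library numbered 3 was the lowest. The 28-month difference of 0.50 (SE 0.16) missed the threshold (limma adjusted p = 0.0574) and passed with DESeq2 (adjusted p = 0.0186) and in the limma fit with a term for the libraries numbered 3 (adjusted p = 0.000597). It also passed without young library 2, 20-month library 3 or 28-month library 3 (adjusted p 0.0305 to 0.0448). Hspb11 differed by 0.53 (SE 0.27, adjusted p = 0.20) at 20 months. Cryab, a small heat shock gene outside the symbol rule and a major chaperone of desmin, had 18840, 24870 and 18430 normalized counts at 2 months and 35390 to 43910 in the 6 older libraries, and rose by 0.91 (SE 0.12, limma adjusted p = 0.000391) and 1.02 (SE 0.12, adjusted p = 0.000178).

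The 7 markers of slow fibres (such as Myh7 and Atp2a2) moved in the same libraries. Their summed normalized counts were 12890, 115123 and 28041 at 2 months, 289784, 163266 and 228944 at 20 months and 255812, 202374 and 255698 at 28 months, and all 7 rose at both older ages, with a median log2 fold change of 2.65 at 20 months. Young library 2, the highest young library for Hspb6, Hspb7, Cryab, Hspa1a, Hspa2, Dnaja4, Dnajb6 and Dnajc16, was also the highest young library for these markers. For Hspb8, Hspa4, Dnajb12, Dnajc2 and Dnajc13 the same library was the lowest of the 3. The part of fibre composition in the rise of these genes was not tested.

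**Figure D3:**
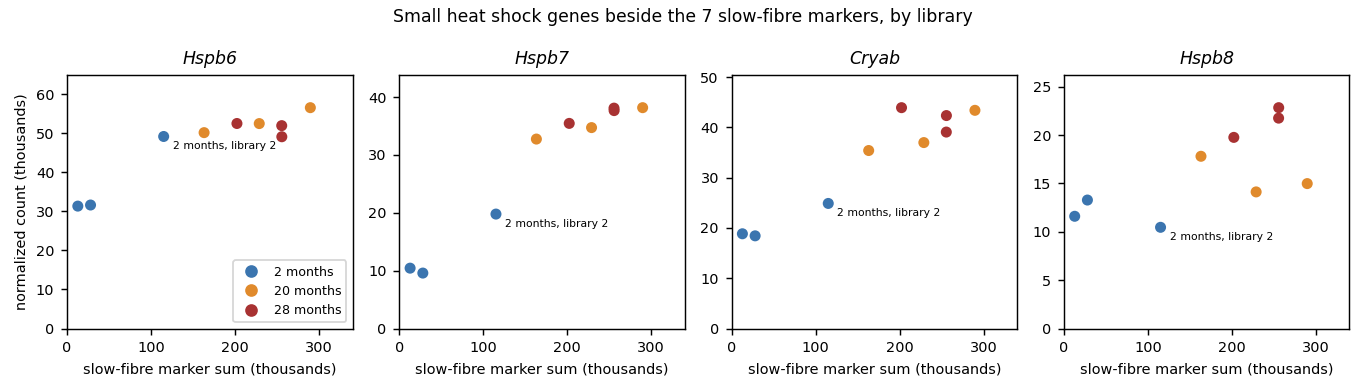
Normalized count of Hspb6, Hspb7, Cryab and Hspb8 against the summed normalized count of 7 slow-fibre markers, both axes in kilocounts; each point is 1 library, coloured by age. The 2-month library 2, at a count of 115123, lies between the other young libraries and the older ones on the marker axis, and lies above the other young libraries for Hspb6, Hspb7 and Cryab but below them for Hspb8.

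Of the 11 genes of the 70 kDa family, all tested, 2 rose by 20 months (Hspa1a and Hspa2), 3 rose by 28 months (Hspa1b as well) and none fell, beside backgrounds of 9.42 and 7.53% for genes that rose. Hspa1a, the heat-inducible form, had 192, 266 and 175 normalized counts at 2 months, 407, 304 and 416 at 20 months and 362, 435 and 466 at 28 months. Each older library exceeded each young one. The log2 fold change was 0.84 (SE 0.18, limma adjusted p = 0.00886) at 20 months and 1.01 (SE 0.18, limma adjusted p = 0.00344) at 28 months, a fold of 2.02, and both calls held without any single library. Hspa1b, its near-identical copy 10120 bp away on chromosome 17, had 111, 146 and 162 at 2 months, 250, 125 and 239 at 20 months and 235, 301 and 300 at 28 months. Its 28-month rise was 1.00 (SE 0.25, limma adjusted p = 0.0204), lost without young library 1 or 28-month library 2 or 3 (adjusted p 0.0699 to 0.0826), and its 20-month value of 0.50 did not pass (adjusted p = 0.199), with 20-month library 2 among the young values. Without that library the 20-month value was 0.82 (adjusted p = 0.028). Reads that fit both copies cannot be assigned to one, so the split of counts between Hspa1a and Hspa1b is uncertain.

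Hspa2, best known for its role in spermatogenesis, had 181, 300 and 162 normalized counts at 2 months, 389, 314 and 318 at 20 months and 328, 402 and 334 at 28 months. It rose by 0.71 (SE 0.21, limma adjusted p = 0.0342) and 0.77 (SE 0.21, adjusted p = 0.0266). The first call was lost without any one of 6 libraries (young 1 or 3, all of 20 months, or 28-month library 2; adjusted p 0.05 to 0.136) and the second without any one of 5 (young 1 or 3 or any of 28 months; 0.0597 to 0.0971). Both Hspa2 calls were also lost with rescaling to the same sum or with only the libraries of the compared ages. Hspa1l, next to Hspa1a on the opposite strand with starts 547 bp apart, differed by 0.29 at 20 months (adjusted p = 0.119) and by 0.07 at 28 months (adjusted p = 0.762). Its 20-month value passed without young library 2 (0.42, adjusted p = 0.0196).

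With limma and age as the only term, the 3 abundant housekeeping members did not pass at either older age. Hspa8, the constitutive cytosolic form, had 33933, 33243 and 37717 normalized counts at 2 months and 35294 to 37819 in the older libraries, with log2 differences of 0.05 and 0.06 (SE 0.08 each, adjusted p = 0.704 and 0.667). Hspa9, the mitochondrial form, differed by 0.11 and 0.06 (SE 0.08, adjusted p = 0.397 and 0.659). Hspa5, the form of the endoplasmic reticulum, had 7242, 6913 and 8329 at 2 months, 8487, 8406 and 9521 at 20 months and 8553, 8230 and 9135 at 28 months, with differences of 0.23 and 0.21 (SE 0.09, adjusted p = 0.0861 and 0.139). The 20-month value of Hspa5 passed without young library 3 (0.31, adjusted p = 0.0347), and both values passed with a term for the libraries numbered 3 (adjusted p = 0.0151 and 0.0297). In the 90 kDa family none of 3 passed in a comparison of 2 ages with limma and age as the only term. DESeq2 on the recovered reads called Hsp90ab1 and Hsp90b1 at 20 months (adjusted p = 0.0397 and 0.0337). Hsp90ab1, the constitutive cytosolic form, had 56625, 53316 and 54265 at 2 months and 58592 to 66315 in the older libraries, which did not overlap the young ones, and differed by 0.21 and 0.18 (SE 0.09, adjusted p = 0.135 and 0.208). Hsp90aa1, the inducible form, differed by 0.18 and 0.32 (SE 0.13, adjusted p = 0.378 and 0.118). Hsp90b1, the reticulum form, differed by 0.23 and 0.17 (SE 0.08, adjusted p = 0.0556 and 0.168), and against the mean of both older ages it passed (adjusted p = 0.0491), a call lost without any single library other than young library 3 or 28-month library 2 (adjusted p 0.0764 to 0.2). The call against both older ages was also lost with edgeR (adjusted p = 0.0714), quantile normalization, no filter on low values or rescaling to the same sum. Hsp90b1 passed at 20 months with a term for the libraries numbered 3 (adjusted p = 0.0186). Without young library 3, Hsp90b1 passed at 20 months (0.28, adjusted p = 0.041) and Hsp90aa1 at 28 months (0.46, adjusted p = 0.0302).

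Hspa5, Hsp90b1 and Dnajc3 are targets of the unfolded protein response, and their starts share a second element. The 19-letter element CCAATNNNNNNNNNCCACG, searched on both strands, was found in the promoters (250 bases before to 50 after the start) of these 3 of the 58 chaperone genes in the RefSeq promoter table (5.17%), and in 0.137% of the 27025 genes in that table. The stretches are given because the 3 genes share the element, and capitals mark the element (GRCm38.p6; Hspa5 at chr2:34772010-34772058, plus strand; Dnajc3 at chr14:118937812-118937860, plus strand).
Hspa5: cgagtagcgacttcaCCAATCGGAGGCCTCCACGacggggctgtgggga
Dnajc3: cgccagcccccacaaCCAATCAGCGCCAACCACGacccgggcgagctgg
The Hsp90b1 promoter held the element 2 times, 1 time on each strand (chr10:86705518-86705671, minus strand).
Hsp90b1: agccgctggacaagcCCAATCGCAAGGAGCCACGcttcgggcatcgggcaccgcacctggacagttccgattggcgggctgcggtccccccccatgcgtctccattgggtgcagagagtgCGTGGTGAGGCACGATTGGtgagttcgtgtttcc
Dnajc3, which inhibits translation-blocking kinases and serves as a cochaperone in the reticulum, differed by 0.12 at 20 months and by -0.04 at 28 months (SE 0.08, adjusted p = 0.329 and 0.814). With limma, age as the only term and all 9 libraries, none of the 3 passed in a comparison of 2 ages. Other settings called Hspa5 and Hsp90b1, as given above. Dnajb9, another reticulum cochaperone, had 1353, 1419 and 1689 normalized counts at 2 months, 1717, 1750 and 2106 at 20 months and 1435, 1265 and 1531 at 28 months. Its step of -0.40 from 20 to 28 months did not pass (SE 0.11, limma adjusted p = 0.196), and its 20-month value of 0.32 against 2 months (adjusted p = 0.0716) passed without young library 3 (0.42, adjusted p = 0.0342). With a term for the libraries numbered 3, both the step and the 20-month value passed (adjusted p = 0.0323 and 0.0103).

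In the 60 kDa family, Hspe1, the lid of the mitochondrial chaperonin, fell and Hspd1, the barrel, did not pass. Hspe1 had 2236, 2308 and 2117 normalized counts at 2 months, 1889, 1836 and 1644 at 20 months and 1757, 1978 and 1793 at 28 months, without overlap with the young libraries. The difference was -0.31 (SE 0.08, limma adjusted p = 0.0252) at 20 months and -0.27 (SE 0.08, limma adjusted p = 0.0522) at 28 months, the first lost without young library 1 or 2 or 20-month library 2 or 3 (adjusted p 0.0592 to 0.0926) and the second passing without 28-month library 2 (-0.32, adjusted p = 0.0323), with a term for the libraries numbered 3 (adjusted p = 0.0222) or with DESeq2 (adjusted p = 0.0454). Hspd1 had 6970, 7688 and 8103 at 2 months and 6649 to 7449 later, with differences of -0.10 and -0.14 (SE 0.08, adjusted p = 0.383 and 0.264). The pair lies head to head on chromosome 1 with starts 95 bp apart, and their spans overlap by 96 bp. The stretch before the Hspe1 start, which lies within the Hspd1 span, is given because it holds 2 overlapping heat shock elements, in capitals (GRCm38.p6, chr1:55088053-55088082, in the direction of Hspe1).
Hspe1: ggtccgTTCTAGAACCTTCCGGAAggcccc

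The heat shock element searched for was GAANNTTCNNGAA, on both strands. It was found in the promoters of 4 of the 58 chaperone genes with an entry (6.90%: Hspd1, Hspe1, Hsph1 and Dnajb6), against 0.662% of 27025 genes. Hspd1 and Hspe1 share the same matched stretch of chromosome 1, read on opposite strands. The shorter form GAANNTTC was found in 14 of 58 (24.1%, against 9.04%), the same 4 included, with Hspa1a, Hspa1b, Hspb1, Hspb3, Hspb6 and Hspb8 among the others. The 4 genes with the full element did not move in 1 direction: Dnajb6 rose, Hspe1 fell at 20 months, and Hspd1 and Hsph1 did not pass. A match of letters is a description and not a shown binding site. The element of Hsph1 reads TTCTGGAAAGTTC and lies past its annotated starts (chr5:149636288-149636300, minus strand).

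In the 110 kDa family, Hspa4, a nucleotide exchange factor for the 70 kDa chaperones, had 5862, 5718 and 5802 normalized counts at 2 months, 7334, 6967 and 6773 at 20 months and 7382, 6701 and 7100 at 28 months. It rose by 0.28 at both ages (SE 0.07, limma adjusted p = 0.0175 each) without overlap between young and older libraries. The first call was lost without 20-month library 1 or 2 (adjusted p 0.0554 to 0.0902) and the second without 28-month library 1 or 3 (0.0563 to 0.0784). Its relative Hspa4l had 372, 455 and 374 at 2 months, 256, 297 and 328 at 20 months and 359, 320 and 362 at 28 months. It fell by 0.45 at 20 months (SE 0.14, limma adjusted p = 0.0448), a call kept without 20-month library 3 and lost without any other single library (adjusted p 0.0509 to 0.177). That call was also lost with no filter on low values, quantile normalization, rescaling to the same sum or only the libraries of the compared ages. Hsph1, the heat-inducible member, differed by -0.09 and -0.16 (SE 0.12, adjusted p = 0.661 and 0.403), and passed at 28 months without young library 2, its lowest young library (-0.32, adjusted p = 0.037).

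In the 40 kDa family, 7 of 37 tested genes rose and 1 fell by 20 months, and 3 rose and 2 fell by 28 months, beside backgrounds of 16.6 and 13.8% in either direction. Dnaja4, Dnajb4 and Dnajb6 rose at both ages. Dnaja4, a cytosolic cochaperone, had 4030, 4689 and 3398 normalized counts at 2 months, 6432, 5452 and 6228 at 20 months and 5600, 5910 and 6617 at 28 months. Its log2 fold change was 0.59 at both ages (SE 0.11, limma adjusted p = 0.0045 and 0.00489). Dnajb4, a cytosolic partner of Hspa8, had 1986, 2402 and 2752 at 2 months, 3876, 3199 and 3903 at 20 months and 3146, 3062 and 3941 at 28 months. It rose by 0.63 and 0.51 (SE 0.13, limma adjusted p = 0.00684 and 0.0216), the second call lost without young library 1 or 28-month library 3 (adjusted p 0.0903 to 0.0929). Dnajb6, which suppresses aggregation and in which mutations cause a limb-girdle muscular dystrophy, had 1687, 1746 and 1556 at 2 months, 2608, 2344 and 2168 at 20 months and 2372, 2327 and 2091 at 28 months. It rose by 0.51 and 0.44 (SE 0.09, limma adjusted p = 0.00283 and 0.00706). For all 3 genes no older library fell within the young range. The calls of Dnaja4 and Dnajb6 held at both ages without any single library. The heat shock element before both annotated starts of Dnajb6, the called gene of this family that has one, is given in capitals (GRCm38.p6, chr5:29735837-29735879, plus strand).
Dnajb6: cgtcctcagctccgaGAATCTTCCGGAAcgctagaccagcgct

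Dnajb5, a cytosolic J protein of heart and muscle that takes part in redox control of a histone deacetylase, went the other way. It had 7652, 7406 and 7805 normalized counts at 2 months, 5664, 6098 and 5723 at 20 months and 5847, 5776 and 5437 at 28 months, so the 6 older libraries all lay below the 3 young ones. It fell by 0.39 at 20 months (SE 0.07, limma adjusted p = 0.00281) and by 0.42 at 28 months (SE 0.07, limma adjusted p = 0.00168), and both calls held without any single library. Dnajc27, a small GTPase with a J domain, had 3778, 4398 and 3721 at 2 months and 2953, 3368 and 3142 at 28 months, and fell by 0.33 (SE 0.08, limma adjusted p = 0.0223). That call was lost without young library 2 or 28-month library 1 or 3 (adjusted p 0.0648 to 0.097). It was also lost with rescaling to the same sum or with only the libraries of the compared ages.

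A further 4 genes rose at 20 months and did not pass at 28 months. These were Dnajc13 of the endosome (0.39, SE 0.10, limma adjusted p = 0.0153), the ribosome-associated Dnajc2 (0.38, SE 0.09, adjusted p = 0.0165), Dnajc16 (0.31, SE 0.09, adjusted p = 0.0374) and Dnajb12 of the reticulum membrane (0.26, SE 0.08, adjusted p = 0.0388). Dnajc13 and Dnajc2 lost the call without 20-month library 1 or 2 (adjusted p 0.0526 to 0.0734), Dnajc16 without any of 5 libraries (young 1 or 3 or any of 20 months; 0.0664 to 0.15) and Dnajb12 without any library of either age (0.0596 to 0.145). Their steps from 20 to 28 months were -0.13, -0.21, -0.06 and -0.17, none of which passed (adjusted p 0.443 to 0.867). The 20-month call of Dnajb12 was also lost with quantile normalization, and that of Dnajc16 with only the libraries of the compared ages. All 4 calls were lost with rescaling to the same sum. Without 28-month library 2, Dnajc13 passed at 28 months (0.35, adjusted p = 0.0288). Dnajc2 had 1476, 1445 and 1448 normalized counts at 2 months, 1849, 1989 and 1833 at 20 months and 1871, 1504 and 1533 at 28 months, so 28-month library 1 alone stayed at the 20-month level. Of the other J proteins, Dnaja2, the most abundant per kb, differed by 0.16 and -0.00 (SE 0.08, adjusted p = 0.181 and 0.986), Dnaja1 by -0.21 and -0.27 (SE 0.10, adjusted p = 0.174 and 0.101, the second passing with a term for the libraries numbered 3 at 0.0212) and the mitochondrial Dnaja3 by -0.09 and -0.10 (SE 0.08, adjusted p = 0.501 and 0.495). The inducible Dnajb1 had 283, 303 and 392 at 2 months and 170, 258 and 271 at 20 months, a difference of -0.50 that did not pass (SE 0.20, adjusted p = 0.102). Dnajb2, which occurs in muscle and nerve, differed by 0.01 and -0.05 (SE 0.09, adjusted p = 0.953 and 0.748), and Dnajc15, an abundant mitochondrial member for its length, by 0.19 and 0.08 (SE 0.09, adjusted p = 0.182 and 0.623).

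**Figure D4:**
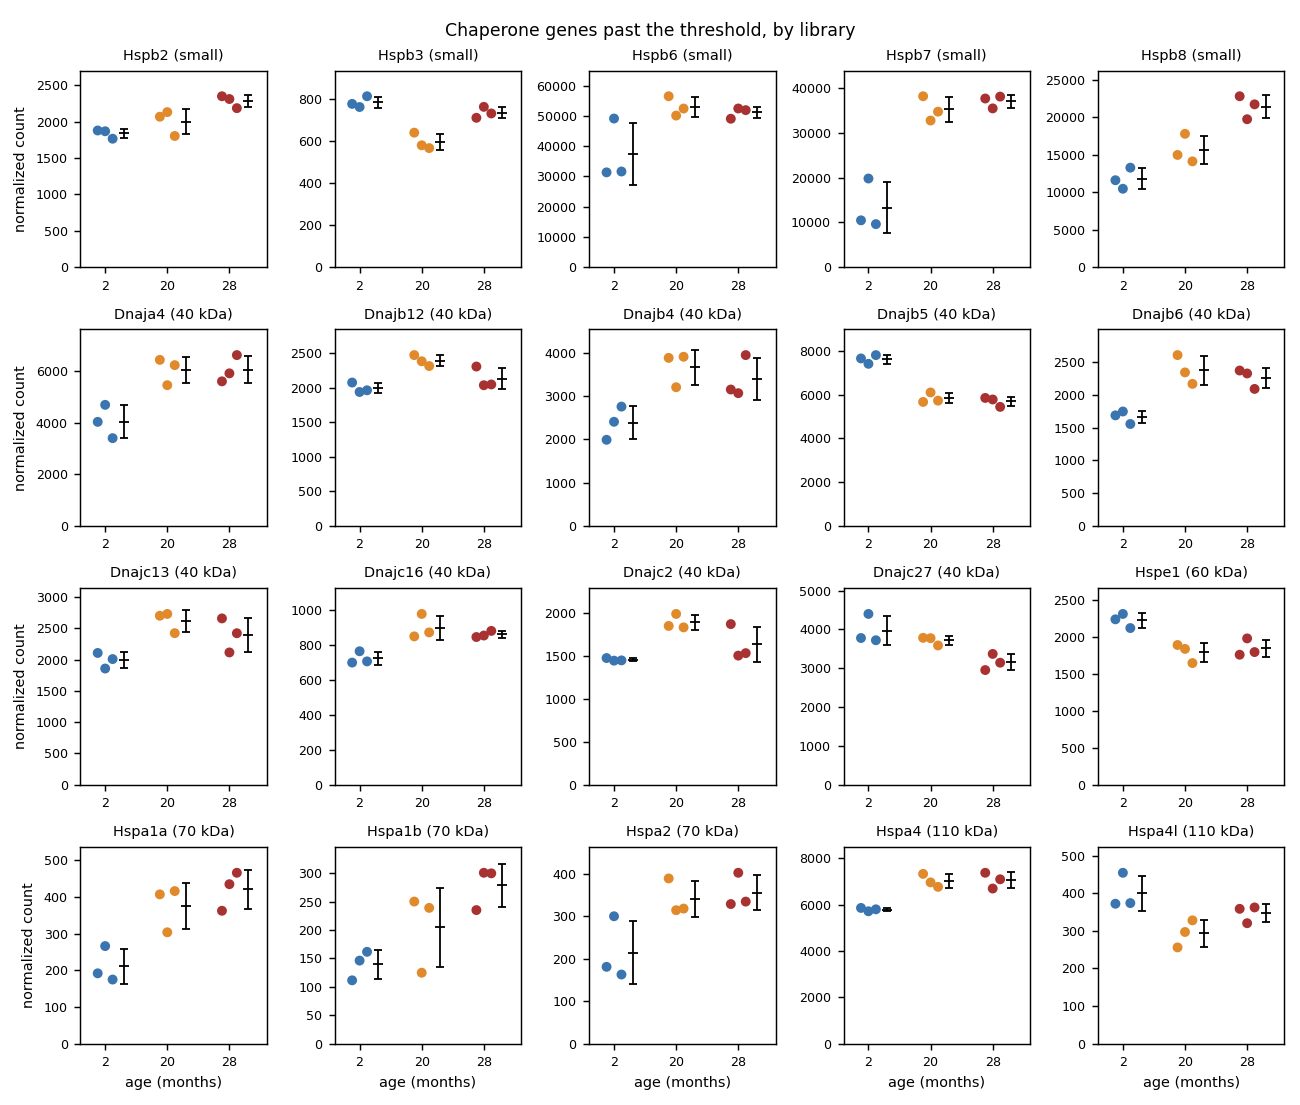
Normalized count against age in months for the 20 chaperone genes with a limma adjusted p under 0.05 in a comparison of 2 ages; each point is 1 library, and the black mark and bar give the mean and SD of 3. Hspb8 climbs from 10465 to 13285 at 2 months to 19763 to 22836 at 28 months, Dnajb5 drops from 7406 to 7805 to 5437 to 5847, and Hspb6 of young library 2 lies at the older level.

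Other genes of chaperone pathways gave mixed counts, to be read beside the 16.6% of all genes that passed at 20 months and the 13.8% at 28 months. Hsf1, the main heat shock factor, differed by -0.05 and 0.05 (SE 0.10, limma adjusted p = 0.746 and 0.77). Of 4 tested factors and regulators, 2 rose at both ages, Hsf4 by 0.74 and 0.87 and Hsf2 by 0.33 and 0.39. Of 24 cochaperones of the 70 and 90 kDa proteins, 3 rose and 4 fell at 20 months, and 2 rose and 3 fell at 28 months. At 20 months Itgb1bp2 and Hspbp1 fell by 0.50 and 0.38, and St13 rose by 0.34. Bag3, the partner of Hspb8, rose by 0.52 and 0.54 (SE 0.08, limma adjusted p = 0.000922 and 0.000689), and Fkbp4 and Ahsa1, both partners of the 90 kDa proteins, fell by 0.34 and 0.42 and by 0.24 and 0.25. None of 8 tested subunits of the TRiC chaperonin passed at either age (median 0.04 and 0.05). Of 5 prefoldin subunits, which deliver actin and tubulin to it, 2 fell at 20 months (Pfdn4 by 0.61 and Pfdn1 by 0.36) and 1 at 28 months. Of 8 mitochondrial folding genes, Clpb alone passed, by 0.30 at 20 months. Of 18 genes of reticulum folding and the unfolded protein response, 4 rose and 1 fell at 20 months and 3 rose and 1 fell at 28 months. At 20 months the sensors Ern1 and Atf6 rose by 0.60 and 0.43, and Atf4 fell by 0.39. Eif2ak3, also a sensor, did not pass at either older age (-0.17 and 0.01, SE 0.18, limma adjusted p = 0.553 and 0.987). Of 7 immediate early genes, which handling of tissue can induce within minutes, 4 rose at both ages, Fos by 1.76 and 1.23, and their part in the rise of Hspa1a and Hspa1b was not tested.

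MBD-seq gave the methylation signal at the starts of all 72 chaperone genes, as the mean normalized count of the 500-bp bins within 500 bp of the start. Each age is 1 pool, so ages were not tested. Most starts were low: the median over the 72 genes was 2.12 in muscle of 2 months, 1.68 at 20 months and 5.63 at 28 months, beside 4.85, 5.05 and 8.498 over 21392 genes. The promoters of the 58 genes with an entry held a median of 24 CpG sites, against 8 over 27025 genes. Hsp90ab1, Hspd1, Hspe1, Hspb11, Dnaja2, Dnajb1, Dnajb4, Dnajc3 and Dnajc30 were at 0 in 2-month muscle. Between 2 and 28 months the median of all genes moved up as well, so a higher value at 28 months was not particular to these genes.

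In 2-month muscle, the upper quartile of the signal was 8.19 over the 72 genes and 16.07 over 21392 genes. A signal of at least 10 was found at 13 of the 72 starts. They were 6 of the 9 members under the expression filter and 7 of the 63 tested ones (Hspb2, Hspb3, Hspb7, Hspb8, Hspa1b, Dnaja4 and Dnajc11). Among the 9 members under the expression filter, the median in 2-month muscle was 35.8, against 1.52 for the 63 tested members. Dnajb8 (81.3), Dnajc5g (52.2), Dnajb3 (49.4), Hspb9 (42.5) and Dnajb7 (35.8) were the highest of the 72, and their values at 28 months were 42.9, 36.3, 23.6, 22.1 and 28.0 as deposited. With every column scaled to the mean sum, a setting chosen after seeing the data, Dnajb8 went from 112.2 to 80.7, Dnajb3 from 68.3 to 44.3 and Hspb9 from 58.6 to 41.5, while Dnajc5g went from 72.04 to 68.3 and Dnajb7 from 49.4 to 52.7. The 4 small heat shock genes among the 7 tested members with a signal of at least 10 had more signal in T cells than in muscle. At 2 months Hspb3 had 117 against 24.3, Hspb7 46.4 against 14.9, Hspb8 46.4 against 16.4 and Hspb2 41.3 against 13.3. T-cell values summed to 199200000 to 249500000 over all bins and muscle values to 90440000 to 123100000. As deposited, T cells were higher at all 3 ages for each of the 4 genes. After scaling this held for Hspb2, Hspb3 and Hspb8, and for Hspb7 at 2 months (39.6 against 20.5). At 20 and 28 months scaled Hspb7 was higher in muscle, with 33.1 against 30.3 and 44.7 against 34.2. At Hspb9 the order differed between ages as deposited, with 42.5, 25.8 and 22.1 in muscle and 2.71, 29.2 and 5.73 in T cells at 2, 20 and 28 months. Scaled to the mean sum, Hspb9 was higher in muscle at all 3 ages, with 58.6, 38.5 and 41.5 against 2.31, 20.4 and 3.90. Hspb7 had 14.9, 22.2 and 23.8 in muscle at 2, 20 and 28 months as deposited, and 20.5, 33.1 and 44.7 when scaled. Hspb8 had 16.4, 7.58 and 11.5 at the same ages as deposited, and 22.6, 11.3 and 21.6 scaled to the mean sum. Hspb6, the most abundant chaperone gene per kb over the 9 libraries, stayed between 0.56 and 3.19 in muscle and at or below 1.35 in T cells.

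**Figure D5:**
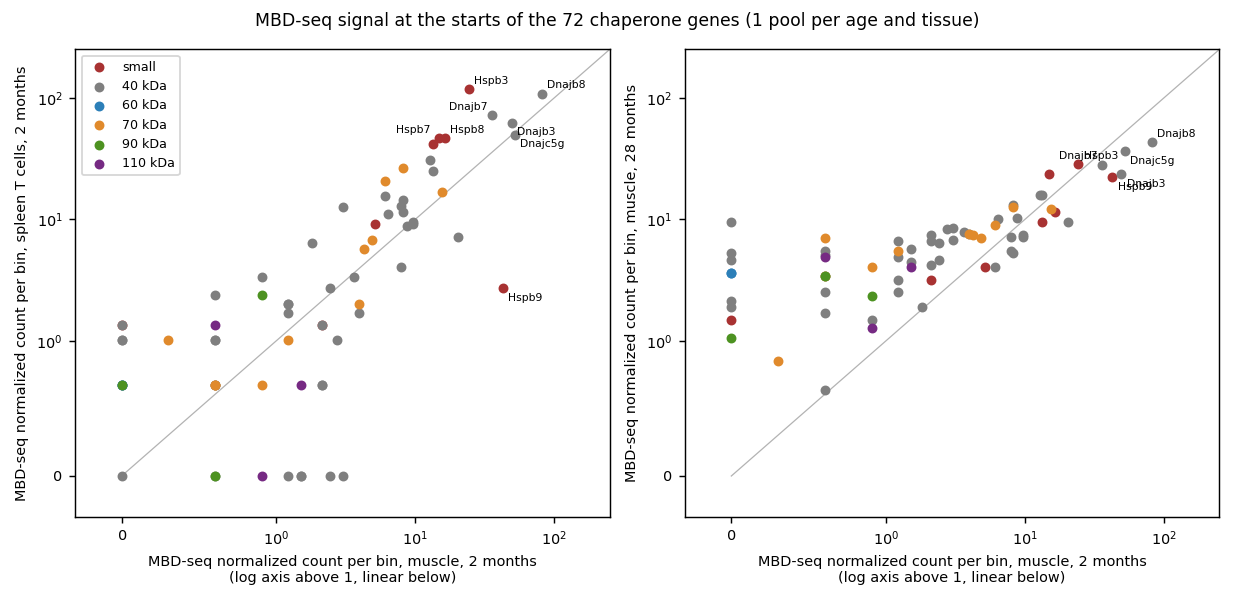
MBD-seq normalized count per 500-bp bin at the starts of the 72 chaperone genes, coloured by family, in T cells of 2 months (left) and muscle of 28 months (right) against muscle of 2 months; each point is 1 gene in 1 pool, axes are logarithmic above 1 and linear below, and the line marks equal values. Hspb3 at 117 lies far above the line in T cells, and starts near 0 in young muscle lie above the line at 28 months.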

How the data were processed

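RNA-seq values were deposited as normalized counts: per the study's methods and the labels, the authors trimmed reads, aligned them to mm10, counted reads per refSeq gene with htseq-count and divided by DESeq2 size factors. The methods name Hisat2 as the aligner and the labels' tool list names TopHat; the strand setting of the counting is not given in the sources used here. All (100%) of the nonzero values of this normalized signal were whole multiples of 1 read, within 0.01 reads, so whole reads were recovered for the count tests. The deposited MBD-seq signal is a size-factor-scaled count per 500-bp bin, from 1 pool of 3 mice per age and tissue. The labels list a repeat of each muscle capture and do not say which of the samples each muscle column holds.

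The 5 summary rows of the counting were left out. Genes with a mean of at least 10 were tested with limma 3.58.1 (R 4.3.3) on log2(normalized count + 1), with age as the only term, all 9 libraries and Benjamini-Hochberg adjustment over 13178 genes. The study's rule, a fold over 2 with p under 0.05, is given beside it. Count models (DESeq2 1.42.0 and edgeR 4.0.16, fitted to the recovered reads), other pseudocounts, filters and scalings, a term for libraries numbered 3, a block on replicate number, the compared groups alone and leaving out each library were alternatives. The limma step was tested on simulated data. Each library is 1 mouse.

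The members and gene lists were chosen with earlier results of these data known. Named with values were members that passed in a comparison of 2 ages, the 2 most abundant per kb of each family, a list of main forms of each family and, of other lists, at most 3 called genes per direction with the largest changes, besides Hsf1, Cryab, Pdgfra and Eif2ak3. Promoters came from RefSeq (GRCm38.p6), with 58 of 72 members matched. Per-kb levels used transcript lengths of RefSeq. Start signals are means over the bins within 500 bp.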

Additional observations from a re-analysis of the deposited data

How the results depend on the processing

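The alternatives were run for 37 of the chaperone genes given with values, and not for Dnajc15, Hspb11 or single genes outside the family such as Cryab or Bag3: 2690 comparisons of single genes stayed on their side of the threshold, 156 lost the call, 77 gained one and none reversed. Rescaling to the same sum cut the calls to 1 (20 against 2 months), 3 (28 against 2) and 5 (both older ages against 2); the cause was not tested. Between 20 and 28 months, where none passed, DESeq2 gave 2 (1.73% of all genes) and a term for libraries numbered 3 gave 2 (0.782%). Leaving out 1 library gave 7 to 16 calls at 20 months, 8 to 14 at 28 months, 9 to 17 for both ages and 0 each time between 20 and 28 months.

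With a replicate block the calls were 3 (28 against 20), 20 (28 against 2) and 27 (both ages), where 1.05, 19.2 and 25.6% of all genes passed. The block was kept out of the report because the numbers share no stated batch, and the correlations of deviations were -0.04 to 0.0998 for numbers 1 and 2 and 0.109 to 0.161 for number 3.

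The family median of the 40 kDa genes at 28 months (-0.0029) became 0.0364 when rescaled and ranged from -0.0412 to 0.00837 without single libraries, and at 20 months it ranged from 0.0337 to 0.0897. Quantile normalization moved the 60 kDa median to -0.27 (20 against 2) and 0.0655 (28 against 20) and the 90 kDa median to 0.10 and 0.0622. With 3 mice per age, small changes can be missed, and MBD-seq with 1 pool per age allows no test.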
